A study of Mus musculus with 15 samples.

Results

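Mouse chromosome 8 was described by its accessible regions, which are the rows of the deposited count table whose names place them on that chromosome. There were 1907 such regions among 43020 in all, and 1764 of them held enough counts to be tested, out of 39952 tested regions. The chromosome was picked because its signal differed between metastasis and primary lines of transplantation rounds 2 and 3, so that difference is given below as a description, and counts of regions called on it are printed beside those of all regions with nothing read from them. Contrasts among metastasis lines and among primary lines were not the ones chosen on, and these were tested. They share the Met2, Met3, Primary2 and Primary3 lines with the choice, so they are not independent of it.

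Accessibility was measured by ATAC-seq in 15 organoid lines of mouse colon cancer, 3 lines in each of 5 groups. Organoids are cultures of tumour cells that grow as small 3-dimensional structures. Met1, Met2 and Met3 were lines from liver metastases of rounds 1, 2 and 3 of transplantation into the mouse colon, and Primary2 and Primary3 were lines from primary tumours of rounds 2 and 3. Every line carried the genotype that the labels call AKP, and every recipient mouse was labelled C57Bl6. Each round began from organoids of the round before, so the groups are steps of one transplantation series, and the sources used here do not say which line came from which. No batch is named in the labels. The regions carry no gene names, so the tumour cell identity could not be checked against marker genes.

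In ATAC-seq a transposase cuts open chromatin and leaves sequencing adapters, and reads gather at promoters and enhancers that are free of tightly packed nucleosomes. The reads of a stretch of chromosome also grow with the number of copies of that DNA in the cells, and tumour lines often gain or lose whole chromosomes or arms. In these counts, more DNA copies and more open chromatin per copy cannot be told apart. Mouse chromosome 8 carries Cdh1, which encodes the epithelial adhesion protein E-cadherin, Itgb1, which encodes an integrin subunit for adhesion to matrix, and Insr, which encodes the insulin receptor. In the RefSeq gene order (GRCm38.p6) the chromosome starts near Insr and ends near Pard3, a cell polarity gene, Nrp1, which encodes a receptor for semaphorins and VEGF, and Itgb1. That annotation is of another build than the table, so none of the regions below is tied to a gene, and no sequence is shown.

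Chromosome 8 regions were sparse beside those of the other autosomes, with 14.9 regions per Mb, which placed the chromosome 18th of 19. In mm9 they reached from position 3069012 to 131227870. The median region was 764 bp wide (200 to 4872 bp), and the median distance between neighbours was 15723 bp. One stretch of 4556285 bp, between 121444716 and 126001001, held no region, the second longest such gap on any autosome. By median signal the chromosome ranked 9th of the 19 autosomes.

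Counts on chromosome 8 ran from 15666 to 329698 per library, out of 285633 to 5916109 counts over all regions. The shallowest library, Primary3 replicate 2, had a median of 4 counts per chromosome 8 region and none at 355 of them. Met1 replicate 1, the second shallowest, had a median of 12 counts and none at 39. These libraries correlated with the others of their group less well than those others did with each other, as did Met2 replicate 1, which was not shallow. Results are therefore also given without the 2 shallowest libraries.

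Metastasis lines gave chromosome 8 a smaller share of their counts than primary lines. The share was 4.24%, 4.03% and 4.21% in the 3 Met1 lines, 4.05%, 4.10% and 4.12% in Met2 lines, and 4.03%, 4.03% and 4.22% in Met3 lines. It was 4.57%, 4.74% and 5.25% in Primary2 lines and 5.29%, 5.48% and 5.57% in Primary3 lines. All 9 metastasis lines lay below all 6 primary lines. The exact 95% binomial interval was widest in the shallowest library, at 5.40 to 5.57%, and such intervals cover counting error only.

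A level was also computed for each line, as the median over chromosome 8 regions of log2 CPM centred on the 15 lines, set against the same median over all regions. The level's zero is thus the mean of 15 lines, 9 of them metastasis lines, so its sign is relative. Levels were -0.06, -0.16 and -0.10 in Met1, -0.14, -0.12 and -0.14 in Met2, and -0.18, -0.13 and -0.08 in Met3. They were 0.03, 0.07 and 0.24 in Primary2 and 0.23, 0.26 and 0.28 in Primary3. Primary2 replicate 3 thus sat among the Primary3 lines and apart from the other 2 Primary2 lines. In metastasis lines chromosome 8 ranked between 2nd and 6th from the lowest of the 19 autosomes. In each Primary3 line and in Primary2 replicate 3 it had the highest level of all, and it ranked 9th and 13th from the lowest in Primary2 replicates 1 and 2.

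**Figure D1:**
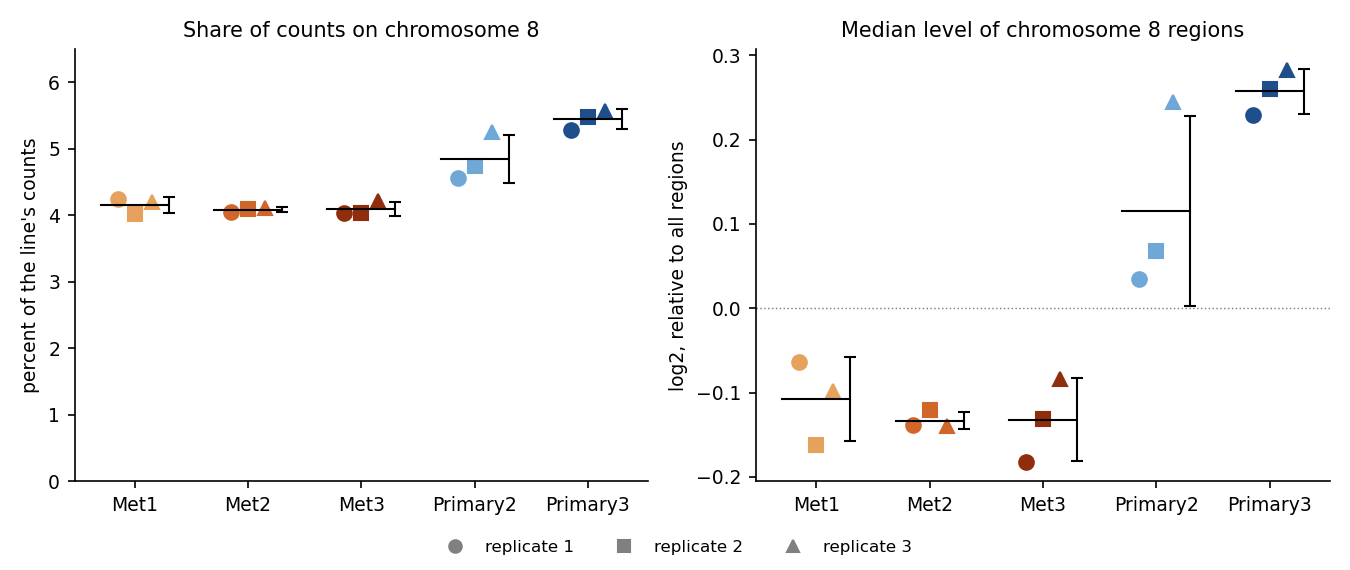
Percent of counts on chromosome 8 (left) and median log2 level of its regions relative to all regions (right), by line. Bars are the means of 3 lines with SD, and all metastasis lines lie below all primary lines in both plots, with Primary2 replicate 3 at 5.25% and 0.24.

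Beside the other autosomes, the difference of chromosome 8 was among the largest. The metastasis minus primary level was -0.25 in round 2, with means of -0.13 ± 0.01 in Met2 and 0.12 ± 0.11 in Primary2 (SD, n = 3 each). In round 3 it was -0.39, with -0.13 ± 0.05 in Met3 and 0.26 ± 0.03 in Primary3. The mean over both rounds was -0.32, second to chromosome 18 at -0.42, and chromosome 11 followed at -0.17. In round 3 alone chromosome 8 had the lowest level difference of the 19, with chromosome 18 at -0.37. By the median log2 fold change of the regions in round 3, chromosome 18 was the lowest at -0.37 and chromosome 8 stood at -0.36. Without the 2 shallowest libraries the mean difference was -0.32.

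**Figure D2:**
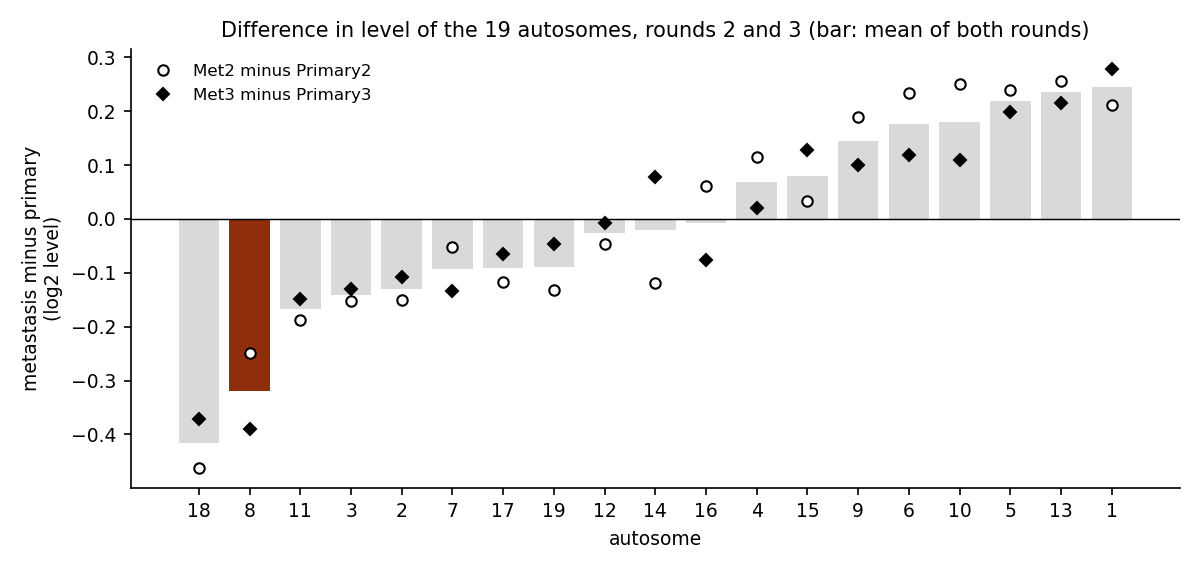
Metastasis minus primary difference in log2 level for the 19 autosomes, ordered by the mean of rounds 2 and 3 (bars), with each round as a point. Chromosome 8 stands at -0.25 in round 2 and -0.39 in round 3, and its mean of -0.32 is second to chromosome 18 at -0.42.

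Within metastasis lines, no difference in the chromosome 8 level passed the test. Met2 and Met3 lines minus Met1 lines gave -0.025 (2-sided exact permutation test, p = 0.381, adjusted over 19 autosomes 0.646). Without Met1 replicate 1 the difference was 0.0051, so its sign rests on that line. Met3 minus Met2 gave 0.00084 (exact permutation test, p = 1). With 3 lines against 3 that test cannot go below 0.1. The exact permutation test of Met2 and Met3 against Met1 cannot go below 0.0238. Chromosome 8 could pass there only if many of the 19 autosomes reached that p together. The p-values here measure only the spread among these lines. The metastasis means were -0.11 ± 0.05 in Met1, -0.13 ± 0.01 in Met2 and -0.13 ± 0.05 in Met3 (SD, n = 3 each), which lie within the spread of the lines.

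Among primary lines, Primary3 exceeded Primary2 by 0.14 in level, which was 3rd in size among the autosomes, but did not pass (exact permutation test, p = 0.20, adjusted 0.475). The groups overlapped, since Primary3 replicate 1, at 0.23, lay below Primary2 replicate 3, at 0.24.

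Along the chromosome, the difference between metastasis and primary lines was seen in nearly every stretch but was uneven. In 10 Mb windows with at least 20 tested regions, all 14 windows were lower in metastasis lines, against 96 of 238 windows (40.3%) on the other autosomes. Round 2 had 14 windows lower and round 3 had 13. On chromosome 18 all 9 windows were lower, and on chromosome 11, 11 of 13. Every metastasis line lay below every primary line of its round, in both rounds, in 8 of the 14 windows, against 27 of 238 on the other autosomes. Such windows numbered 7 of 9 on chromosome 18, 7 of 19 on chromosome 2 and 5 of 13 on chromosome 11. In 5 Mb windows, 24 of 25 were lower.

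The windows fell into 3 stretches. From 0 to 50 Mb the differences lay between -0.18 (20 to 30 Mb) and -0.44 (30 to 40 Mb). From 50 to 80 Mb they were smaller, at -0.09, -0.13 and -0.02. From 80 to 130 Mb they returned to between -0.26 (110 to 120 Mb) and -0.45 (120 to 130 Mb). The middle stretch held few regions, with 48, 103 and 75 tested per window. In the window of 70 to 80 Mb, levels were -0.13, -0.11 and 0.14 in Met2 against -0.09, 0.03 and 0.10 in Primary2, and -0.02, 0.02 and 0.11 in Met3 against -0.01, -0.03 and 0.14 in Primary3. The lines of both origins overlapped there. In the window of 100 to 110 Mb they did not, with -0.27, -0.21 and -0.20 in Met2 against 0.07, 0.06 and 0.42 in Primary2, and -0.15, -0.20 and -0.14 in Met3 against 0.33, 0.28 and 0.29 in Primary3. Across the 14 windows, the profile of the round 2 difference followed that of round 3 (Pearson's r = 0.929, Spearman's rho = 0.705, given as a description, since neighbouring windows share lines and libraries). The first value leans on the last window, whose differences were -1.29 in round 2 and -1.89 in round 3.

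**Figure D3:**
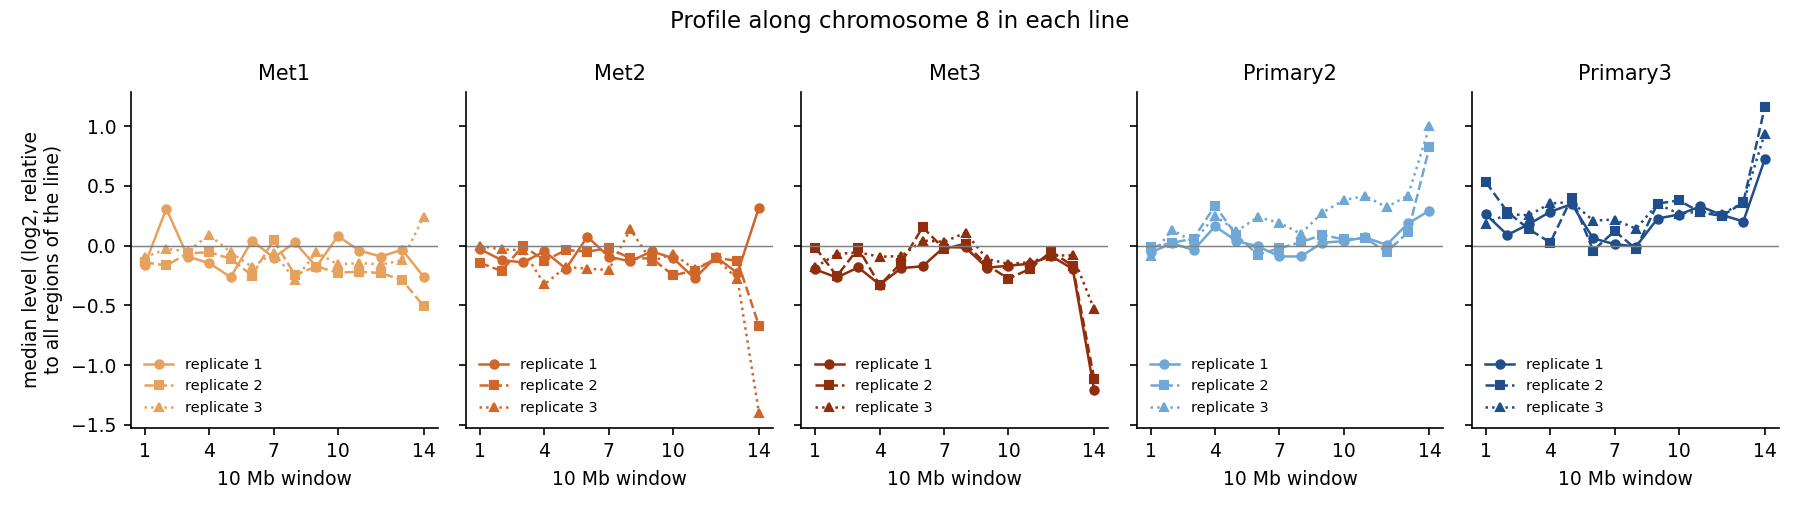
Median log2 level in 14 windows of 10 Mb along chromosome 8, one panel per group and one curve per line, relative to all regions of the line. Primary3 lines and Primary2 replicate 3 lie above 0 in most windows, metastasis lines mostly below, and the last window spreads from -1.40 to 1.16.

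The lines differed in the shape of their profile. Met3 replicate 1 was below 0 in all 14 windows, and Primary3 replicate 3 in none. Primary2 replicate 3 was uneven, with a median level of 0.12 over the 581 regions before 40 Mb and 0.38 over the 789 regions from 80 Mb on. That gain of 0.26 along the chromosome was the largest of the 15 lines. From 80 Mb on the Primary3 lines stood at 0.29, 0.34 and 0.30, whereas Primary2 replicates 1 and 2 stood at 0.08 and 0.07. Before 40 Mb the Primary3 lines were at 0.22, 0.18 and 0.27. Primary2 replicate 3 thus lay below all Primary3 lines before 40 Mb and above all of them from 80 Mb on.

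Primary3 exceeded Primary2 in 13 of 14 windows, against 109 of 238 windows on the other autosomes and 0 of 9 on chromosome 18. Other autosomes also lay at the extremes, with 15 of 15 on chromosome 7, 10 of 10 on chromosome 16 and 0 of 12 on chromosome 14. The largest excess, 0.38, was in the first 10 Mb, where Primary3 lines had 0.26, 0.53 and 0.18 against -0.06, -0.01 and -0.09 in Primary2 lines. Round 2 metastasis and primary lines barely differed there (-0.005), and round 3 lines differed by -0.46. Later metastasis lines (Met2 and Met3) were lower than Met1 in 8 of 14 windows. The lowest exact permutation p of the 14 windows in that contrast was 0.0952 (adjusted over all autosomal windows 0.364). The smallest p that this test can give is 0.0238, and the windows of other autosomes that reached it had an adjusted p of 0.30, so a window could pass the adjustment only if many reached that p together. The lowest p on chromosome 8 was 0.0238 in 5 Mb windows and with only regions of at least the median signal, and 0.0357 without Met2 replicate 1 or without Met2 replicate 3.

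The last window, from 130 Mb to the end of the regions at 131227870, stood apart from the other 13, with a difference of -1.59 over only 23 regions. Its level was -0.26, -0.51 and 0.24 in Met1, 0.32, -0.67 and -1.40 in Met2, and -1.21, -1.12 and -0.53 in Met3. It was 0.29, 0.82 and 0.998 in Primary2 and 0.72, 1.16 and 0.94 in Primary3. Met2 replicate 1 thus lay with the primary lines and the other Met2 lines far below them. The Met3 lines all lay below the Met1 lines, though the gap between the nearest lines was small, and the primary lines of both rounds were high. Summed over the window, signal was 422, 258 and 192 CPM in Met2 against 346, 496 and 579 CPM in Primary2, and 163, 225 and 266 CPM in Met3 against 541, 615 and 618 CPM in Primary3. Met1 lines had 231, 214 and 331 CPM, so by this sum Met3 and Met1 overlapped. Of the 23 regions, 20 had a log2 fold change below 0 between metastasis and primary lines and 17 were below -1, while 21 were lower in Met3 than in Met1. Most of them were weak, and only 6 of the 23 had a mean of at least 20 CPM.

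The strongest region of that window was an exception. At peak_100671 (131190440 to 131191210) Met2 lines had 96.3, 83.8 and 62.9 CPM against 53.9, 68.4 and 96.0 CPM in Primary2, and Met3 lines had 57.1, 81.3 and 98.4 CPM against 109, 178 and 134 CPM in Primary3. Its log2 fold change over both rounds was -0.31. Met3 lines were higher there than Met1 lines, which had 32.8, 37.1 and 53.4 CPM, by 0.91 ± 0.27 (log2, SE; edgeR adjusted p = 0.0358). At a weaker neighbour, peak_100642 (130636752 to 130637618), the pattern was that of the window. Met2 lines had 29.9, 13.9 and 1.40 CPM against 31.9, 46.5 and 56.5 CPM in Primary2, and Met3 lines had 1.82, 4.58 and 5.18 CPM against 48.3, 41.4 and 50.2 CPM in Primary3. Met2 replicate 1 again lay nearest to the primary lines.

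Single regions were compared with edgeR's quasi-likelihood test over all 39952 tested regions, at a Benjamini-Hochberg adjusted p under 0.05. Between metastasis and primary lines of both rounds, 450 of the 1764 chromosome 8 regions (25.5%) passed, 121 higher and 329 lower, beside 20.2% of all tested regions, 11.2% higher and 8.98% lower. Since chromosome 8 was chosen on this contrast, nothing is read from that count. With each line's chromosome medians removed, 377 chromosome 8 regions passed, 202 higher and 175 lower, where 18.7% of all tested regions of the table passed, and 296 of them were among the 450. Without the 2 shallowest libraries 516 passed, beside 8818 over all regions, where the main fit had 8080. The median log2 fold change was -0.29 on chromosome 8 and 0.04 over all regions. Values below 0 made up 69.2% of chromosome 8 regions and 46.3% of those on other autosomes. The interquartile range on chromosome 8 was -0.73 to 0.14.

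In round 2 alone, 124 chromosome 8 regions passed (48 higher, 76 lower), beside 6.21% of all regions (3.44% higher, 2.77% lower). In round 3 alone 259 passed (63 higher, 196 lower), beside 10.2% of all regions (5.64% higher, 4.52% lower). With the chromosome medians removed, 72 chromosome 8 regions were higher and 44 lower in round 2, where 5.57% of all tested regions of the table passed. In round 3, 109 were higher and 97 lower, where 9.78% of the table passed. In both rounds 57 regions were lower and 27 were higher, and 0 had opposite calls. The shared calls made up 67.7% of those of round 2 and 32.4% of those of round 3, and on the other autosomes 53.2% and 33.0%. The counts depend on single lines, on chromosome 8 as over all regions. Round 2 gave 77 without Met2 replicate 3, and 56, 54 and 57 without Primary2 replicates 1, 2 and 3. Over all regions the same fits gave 1758, 963, 1103 and 1166, where the main fit had 2480. Round 3 gave 110 and 166 without Met3 replicates 1 and 2, and 98 and 119 without Primary3 replicates 1 and 3. Over all regions these fits gave 1831, 2644, 1483 and 1950, where the main fit had 4059. Every metastasis line lay below every primary line of its round at 209 chromosome 8 regions (11.8%, beside 4.96% of all regions), and above at 57 (3.23%, beside 5.77%).

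By window, and as a description only, the share of regions called lower between metastasis and primary lines, beside 8.98% of all tested regions, was 24.4% at 30 to 40 Mb, 22.6% at 40 to 50 Mb and 23.7% at 120 to 130 Mb. It was 10.4%, 10.7% and 8% in the 3 windows from 50 to 80 Mb, where the shares called higher, beside 11.2% of all tested regions, were 12.5%, 9.71% and 16.0%. In the last window 15 of 23 regions were called lower and 0 higher. Sorted by width into 4 classes, chromosome 8 regions differed in level by -0.32 to -0.34 in each class. Sorted by signal, the weakest class differed by -0.52 and the other classes by -0.30 to -0.33. The weakest class differed by -0.26 in round 2 and -0.78 in round 3, where the shallowest library is one of 3 primary lines. The part of depth in this was not tested.

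**Figure D4:**
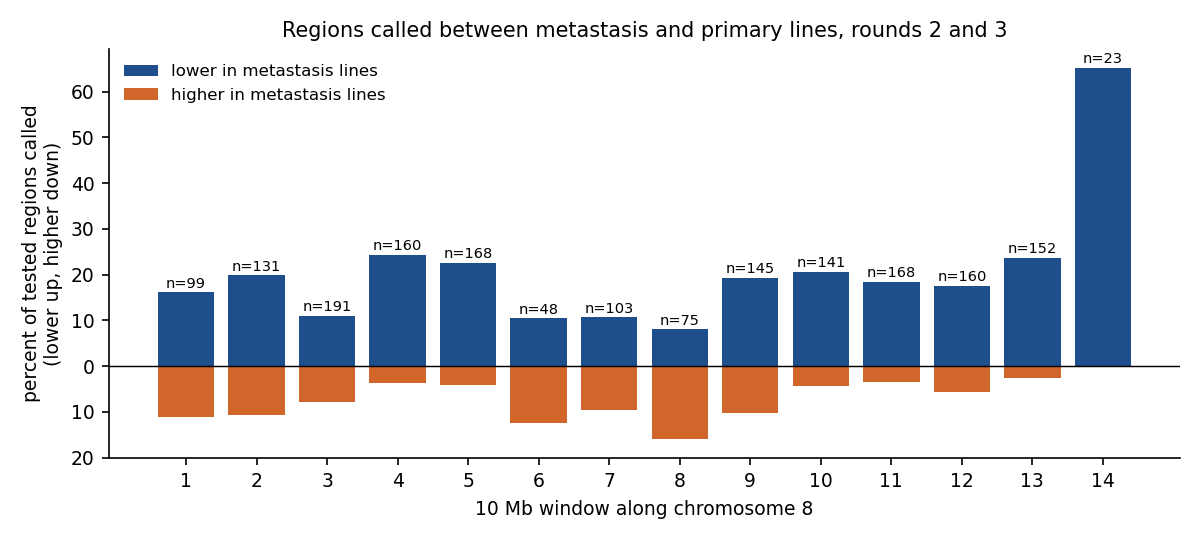
Percent of tested chromosome 8 regions called lower (up) and higher (down) in metastasis than in primary lines of rounds 2 and 3, by 10 Mb window, with the number of tested regions. Windows 6 to 8 (50 to 80 Mb) have 8 to 10.7% called lower, and window 14 has 65.2%.

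Neighbouring regions moved together about as often as elsewhere. Adjacent chromosome 8 regions shared the sign of their fold change, taken around the chromosome median, in 59.7% of 1763 pairs, and the median of the other autosomes was 59.6%. The longest run of lower regions spanned 28 regions from 107735997 to 108146715, with a median log2 fold change of -0.42 and 4 regions called. A run of 22 lower regions from 126208423 to 128521204 had a median of -0.79 and 11 called. Its level was -0.15, -0.33 and -0.39 in Met2 against 0.27, 0.30 and 0.59 in Primary2, and -0.74, -0.56 and -0.20 in Met3 against 0.45, 0.54 and 0.48 in Primary3. That run too was picked by its direction, so its values only describe it. Against the direction of the chromosome, 13 neighbouring regions from 12019006 to 12234411 were higher, with a median of 1.37 and 7 called. Their level was 0.33, 0.46 and 0.89 in Met2 against -0.65, -0.57 and -0.07 in Primary2, and 0.06, -0.72 and 0.88 in Met3 against -1.04, -0.23 and -0.77 in Primary3. Met3 replicate 2 was the single metastasis line below 0 over this run.

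Regions are named by their fold change where the signal was at or above the median and the lines did not overlap in either round. The lowest in metastasis lines was peak_97757 (89446035 to 89447920), a region of 1885 bp. It had 7.31, 13.5 and 11.2 CPM in Met2 against 88.6, 73.3 and 93.6 CPM in Primary2. It had 3.04, 5.72 and 7.12 CPM in Met3 against 87.4, 66.9 and 90.6 CPM in Primary3. Its log2 fold change was -3.46 ± 0.35 (SE). The 3 Met1 lines, at 10.2, 4.44 and 33.7 CPM, were also below every primary line.

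The second, peak_96111 (46669292 to 46670800), had 5.31, 6.28 and 2.80 CPM in Met2 against 38.2, 51.4 and 59.7 CPM in Primary2, and 1.21, 12.97 and 7.77 CPM in Met3 against 85.0, 38.2 and 70.3 CPM in Primary3. Its log2 fold change was -3.22 ± 0.34. Here the Met1 lines, at 21.5, 32.7 and 49.2 CPM, lay above all later metastasis lines. Peak_97363 (83460393 to 83463316), 2923 bp wide, had 9.96, 11.7 and 14.7 CPM in Met2 against 93.2, 78.2 and 60.5 CPM in Primary2. In round 3 it had 8.50, 6.87 and 9.71 CPM in Met3 against 94.8, 51.0 and 74.0 CPM in Primary3 (log2 fold change -2.94 ± 0.37). The Met1 lines of peak_97363 differed widely, at 32.8, 5.39 and 59.7 CPM. The remaining ones were peak_100642 at -2.57, peak_97905 (91128302 to 91129779) at -2.29 and peak_95973 (42047317 to 42049149) at -2.25.

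Some regions ran the other way from the chromosome. Peak_98322 (106585018 to 106586017) had 17.3, 22.9 and 114 CPM in Met2 against 6.95, 3.83 and 2.42 CPM in Primary2, and 60.1, 102 and 57.0 CPM in Met3 against 3.85, 3.19 and 7.91 CPM in Primary3. Its log2 fold change was 3.55 ± 0.46, and Met1 lines had 26.0, 7.61 and 9.55 CPM. Peak_97705 (88942123 to 88943036) had 75.7, 47.1 and 37.0 CPM in Met2 against 7.53, 9.30 and 10.5 CPM in Primary2, and 53.5, 42.4 and 31.1 CPM in Met3 against 12.6, 3.19 and 16.3 CPM in Primary3 (2.12 ± 0.27). Peak_94570 (11399751 to 11400764) had 45.8, 64.6 and 16.8 CPM in Met2 against 7.53, 3.83 and 16.1 CPM in Primary2, and 35.8, 30.1 and 45.3 CPM in Met3 against 10.5, 12.7 and 16.2 CPM in Primary3 (1.87 ± 0.32). Met1 lines were as high there as the later ones, with 45.3, 66.3 and 40.9 CPM, and Met2 replicate 3 was close to the primary lines. The next were peak_96206 (47934153 to 47934785), peak_97709 (88977644 to 88978940) and peak_94670 (12052463 to 12053238), each at 1.77. Peak_97705 and peak_97709 lie close to each other and not far from peak_97757, which went the other way.

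The Met1 lines were not used to choose the chromosome or these regions. At the 329 regions lower in later metastasis than in primary lines, the Met1 mean lay nearer to the later metastasis mean than to the primary mean at 214 (65.0%), and beyond the later metastasis mean at 71. At the 121 higher regions it was nearer at 39 (32.2%). On the other autosomes the shares were 54.6% of lower and 48.9% of higher regions. These shares are counts with no test, and regions called on later lines favour extreme values in those lines. The whole chromosome 8 level was -0.11 in Met1, near -0.13 in Met2 and in Met3. The part of that level in these shares was not tested.

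Between Met3 and Met1, 150 chromosome 8 regions changed, 91 higher and 59 lower in Met3 (8.50%, beside 9.54% of all tested regions, 5.98% higher and 3.56% lower). The chromosome thus had about the share of changes seen over all regions. The median log2 fold change was -0.04 on chromosome 8 and -0.04 over all regions. Scaling by total counts moved the median of all regions to -0.17 and that of chromosome 8 to -0.18, and gave 66 higher and 72 lower. Leaving out single lines lowered the count to 70 and 67 (Met1 replicates 2 and 3) and to 65, 85 and 96 (Met3 replicates 1, 2 and 3). The count over all regions fell too, from 3813 to 2025 and 1940, and to 1852, 2254 and 2516. Without the 2 shallowest libraries the chromosome 8 count was 160, and 3876 over all regions.

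The largest increase among these was at peak_98297 (102507600 to 102508287), with 82.6, 82.8 and 63.5 CPM in Met3 against 6.79, 0.634 and 3.28 CPM in Met1. That is a log2 fold change of 4.76 ± 0.86 (SE), with an edgeR adjusted p = 0.00176. Met2 lines were split there, at 5.31, 16.1 and 86.7 CPM, so one Met2 line equalled the Met3 lines and another the Met1 lines. Peak_94295 (3867891 to 3869348), close to the first region of the chromosome, had 33.4, 27.5 and 34.3 CPM in Met3 against 9.06, 1.90 and 3.58 CPM in Met1 (2.98 ± 0.46, edgeR adjusted p = 0.000316). All 3 Met2 lines of peak_94295, at 7.97, 8.07 and 13.3 CPM, stayed below the Met3 lines. Peak_98738 (111269463 to 111269921) had 45.0, 27.8 and 44.7 CPM in Met3 against 9.06, 4.44 and 4.77 CPM in Met1 (2.82 ± 0.42, edgeR adjusted p = 0.000216). The fourth, peak_95287 (24120352 to 24121273), at 2.75 ± 0.73, lost its call without any one of Met1 replicate 2, Met1 replicate 3, Met3 replicate 1 or Met3 replicate 2, with values of 2.34, 2.60, 2.73 and 2.60.

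The largest decrease was at peak_95824 (36438464 to 36440001), with 4.25, 8.01 and 5.83 CPM in Met3 against 30.6, 47.6 and 33.7 CPM in Met1 (-2.60 ± 0.47, edgeR adjusted p = 0.00128). Met2 lines there had 37.2, 6.28 and 21.0 CPM, from one as high as Met1 to one as low as Met3. Peak_95917 (37520386 to 37521430) had 4.86, 3.05 and 7.12 CPM in Met3 against 24.9, 17.5 and 31.9 CPM in Met1 (-2.35 ± 0.50, edgeR adjusted p = 0.00431), and its Met2 lines had 48.5, 15.7 and 10.5 CPM. At peak_96111 Met3 fell by 2.19 relative to Met1 (SE 0.47, edgeR adjusted p = 0.00419). At peak_96484 (64052057 to 64053685) it fell by 2.12 (SE 0.46, edgeR adjusted p = 0.00436). These 4 regions had log2 fold changes of -1.54, -1.76, -3.22 and -1.77 between later metastasis and primary lines. They were picked for low Met3 values, which enter that comparison too. Met2 minus Primary2, without Met3 lines, was -0.37, -0.62, -3.32 and -1.07, and only peak_96111 passed (edgeR adjusted p = 0.000506). That region was also named above for its low values in Met2 and Met3 against primary lines, so nothing is read from its p.

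The longest runs of neighbours on one side of 0 between Met3 and Met1 are given as a description, since they were picked by that contrast. A run of 16 regions from 34841285 to 35171899 was lower in Met3, with a median log2 fold change of -1.23 and 4 called, at levels of -0.87, -0.42 and -0.41 in Met3 against 0.75, 0.27 and 0.51 in Met1. A run of 14 regions from 5073675 to 8275468 was higher, with a median of 1.31 and 4 called, at -0.07, 0.30 and 0.70 in Met3 against -0.53, -0.56 and -0.76 in Met1. The longest run, 19 regions from 130145882 to 131178912, was lower in Met3 by a median of -1.27 with 1 region called, and belongs to the last window.

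Between Met2 and Met1, 48 chromosome 8 regions changed, 33 higher and 15 lower in Met2 (2.72%, beside 3.55% of all tested regions, 2.64% higher and 0.909% lower). Scaling by total counts gave 20 higher and 18 lower, beside 1216 calls over all regions. The count was 17 and 12 without Met1 replicates 2 and 3, and 96 and 27 without Met2 replicates 1 and 3. A fit of only these groups gave 0. Over all regions these last 5 fits gave 561, 475, 2475, 727 and 58, where the main fit had 1417. Without the 2 shallowest libraries the count was 61, and 1520 over all regions. Peak_98753 (111346616 to 111347297) had 32.5, 30.5 and 44.0 CPM in Met2 against 10.2, 3.49 and 3.88 CPM in Met1 (2.85 ± 0.43, edgeR adjusted p = 0.000652). Peak_98738, nearby, had 26.6, 31.8 and 50.3 CPM in Met2 (2.72 ± 0.42, edgeR adjusted p = 0.000711). Met3 differed from Met2 by -0.10 on the log2 scale at peak_98753 and by 0.11 at peak_98738, and primary lines had 25.5 to 69.9 CPM at peak_98738. Peak_98028 (94532559 to 94533576), at 2.59 ± 0.67, lost its call without Met1 replicate 1 (2.72), Met1 replicate 2 (1.94) or Met2 replicate 3 (1.95).

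Of the decreases, peak_96111 fell by 2.83 in Met2 relative to Met1 (SE 0.50, edgeR adjusted p = 0.00246). Peak_98724 (111113786 to 111115576) had 25.2, 9.86 and 16.1 CPM in Met2 against 27.2, 68.8 and 100 CPM in Met1 (-2.02 ± 0.42, edgeR adjusted p = 0.00881), and lost its call without Met1 replicate 3, at -1.58. Peak_94560 (11316106 to 11317787) had 11.95, 16.1 and 11.9 CPM in Met2 against 46.4, 32.7 and 44.2 CPM in Met1 (-1.59 ± 0.32, edgeR adjusted p = 0.00656). Peak_94560 lies close to peak_94570, where Met2 minus Met1 was -0.25 ± 0.40 and did not pass.

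Between Met3 and Met2 edgeR called 0 chromosome 8 regions (0% of all tested regions), with 134 at an unadjusted p under 0.05, beside 7.32% of all regions. DESeq2 called 3, beside 0.168% of the regions it tested. Leaving out Met2 replicate 2 gave 3 calls in edgeR, and leaving out Met2 replicate 3 gave 1, beside 54 and 45 over all regions. Between Primary3 and Primary2 edgeR also called 0 (0% of all tested regions), with 147 at an unadjusted p under 0.05, 125 of them higher in Primary3, beside 6.62% of all regions. On the other autosomes 1288 of 2475 such regions were higher. DESeq2 called 14 chromosome 8 regions, all higher in Primary3, beside 0.248% of the regions it tested, and a fit of only these groups called 7, all higher, beside 0.102%. The median log2 fold change between Primary3 and Primary2 was 0.10 on chromosome 8, the highest of the 19 autosomes, and -0.05 over all regions. Chromosome 16 was close behind at 0.099, and by level its difference, 0.148, exceeded the 0.142 of chromosome 8.

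The 4 strongest regions of the chromosome had log2 fold changes from -0.49 to -0.10, where the median of chromosome 8 was -0.29. Peak_100561 (129371629 to 129374074) had the highest mean, 386 CPM, with 336, 353 and 317 CPM in Met2 against 436, 482 and 437 CPM in Primary2, and 356, 349 and 379 CPM in Met3 against 488, 411 and 561 CPM in Primary3. Metastasis lines were thus below primary lines of their round at this region, by -0.43 on the log2 scale, near the shift of its window (-0.45). Peak_97618 (87502336 to 87507208), the widest region of the chromosome at 4872 bp, differed by -0.49 and peak_95307 (24276624 to 24278469) by -0.48. Peak_98530 (108658497 to 108662249) differed by -0.10, with 251, 299 and 282 CPM in Met2 against 279, 299 and 330 CPM in Primary2. Peak_100561, peak_97618 and peak_95307 were among the 450 regions called, and peak_98530 was not. In the windows of the middle stretch, the strongest regions were peak_96381 (59989970 to 59991056) at -0.04, peak_96441 (63461564 to 63462882) at 0.03 and peak_97152 (77557334 to 77558368) at -0.06. Peak_95775 (35685224 to 35686232), the strongest at 30 to 40 Mb, differed by -0.21. The 3 regions of the middle stretch changed sign under some alternatives, and peak_98530 and peak_95775 did so with chromosome medians removed (0.22 and 0.11).

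**Figure D5:**
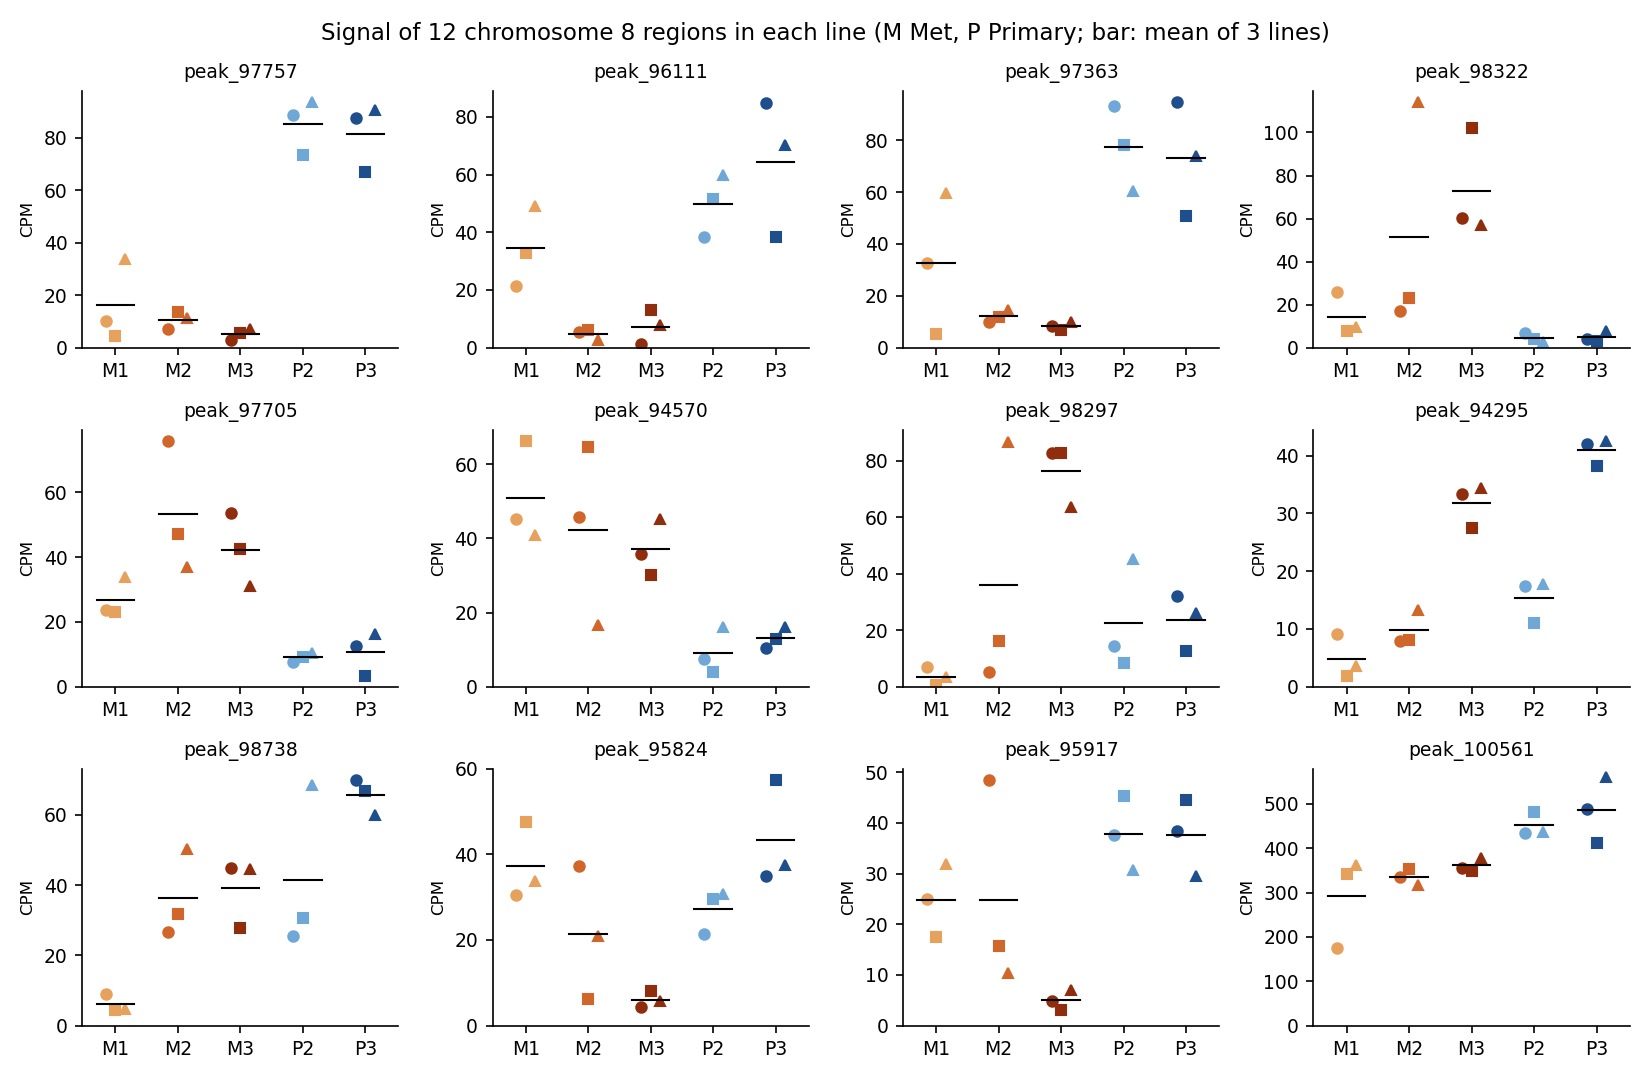
Signal in CPM at 12 chromosome 8 regions in each line (circle, square and triangle for replicates 1, 2 and 3), with bars for group means. Peak_97757 and peak_97363 are low in Met2 and Met3 lines, peak_98322 and peak_97705 are high, and peak_98297 and peak_95824 separate Met3 from Met1.

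A few regions stood out in a single line. Peak_95819 (36356364 to 36357447) had 104 CPM in Met2 replicate 1 against at most 28.4 CPM in the other 14 lines. Peak_95114 (19716807 to 19717501) had 97.4 CPM and peak_95488 (27159026 to 27161196) 69.1 CPM in Met1 replicate 1, where the other lines reached at most 34.7 and 29.9 CPM. Met1 replicate 1 is the second shallowest library, and the part of its depth in these values was not tested.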

How the data were processed

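The authors deposited whole-number read counts for 43020 regions, called over all samples together, with positions in the region names. Per the submitters' processing notes the build was mm9 and the tools were MACS2, Bowtie, bedtools, Picard and SAMtools, with no roles or versions. Duplicate handling and transposase offset are not stated in those notes.

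Groups came from the sample titles. With edgeR 4.0.16 (limma 3.58.1, R 4.3.3), low regions were removed by filterByExpr (count 10, total 15). Libraries were scaled by TMM and fitted as 5 group means over all 15 lines, and regions were called at an adjusted p under 0.05. CPM are TMM-scaled, and log2 CPM had a prior count of 2. SEs came from the fold change and F statistic. The code was tested on simulated data. Figures used Python 3.11.15, numpy 2.4.6, pandas 2.3.3 and matplotlib 3.10.9.

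Named regions had at least the median signal. They were, with no overlap of the lines compared, the 6 largest and 6 smallest fold changes in rounds 2 and 3, 4 of each called in Met3 against Met1 and 3 of each in Met2 against Met1. Also named were the 4 with the highest mean, the strongest of the 3 lowest and 3 highest windows, and the 3 where a single line stood farthest above the rest. The chromosome and the rule were chosen with earlier results of these data known. So was a list of 53 chromosome 8 genes, which could not be placed on regions. Alternatives were DESeq2 1.42.0, total-count scaling, prior count 0.5, no filter, a minimum count of 30, 5 Mb windows, stronger regions only, levels against the other autosomes, chromosome medians removed, a fit of the groups compared, a replicate block, and leaving out lines.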

Additional observations from a re-analysis of the deposited data

Results flagged for a closer look

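Over the 9 metastasis lines, the window from 10 to 20 Mb (starting at 10000001) held a line far from the others. Met1 replicate 1 had a level of 0.31 there, and the other 8 metastasis lines lay between -0.27 and -0.03 (mean -0.14 ± 0.10, SD). This was the single such case among 30 sets of lines examined on chromosome 8, and chance alone gives about 1 in 20. Met1 replicate 1 is the second shallowest library, and the part of its depth in this value was not tested.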

How the results depend on the processing

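The chromosome 8 level difference between metastasis and primary lines lay between -0.34 and -0.31 under 6 alternatives and between -0.34 and -0.28 with any single line left out. The windows lower in metastasis lines numbered 24 of 25 at 5 Mb, and 13 to 14 of 14 with a line left out. Met2 and Met3 minus Met1 changed sign without the 2 shallowest libraries (0.0043) and ranged from -0.050 to 0.0051 with a line left out. Met3 minus Met2 changed sign for regions of at least the median signal (-0.0092) and ranged from -0.012 to 0.028. Primary3 minus Primary2 ranged from 0.10 to 0.21. None of these level tests passed, but for Met3 against Met2 and Primary3 against Primary2, with a smallest p of 0.1, passing was out of reach. For the level of Met2 and Met3 against Met1, the exact permutation test has a smallest p of 0.0238. Passing there needed many autosomes at that p together. The windows passing the adjusted test of Met2 and Met3 against Met1 numbered 0, and 0 to 0 with a line left out, and passing there needs many windows at the smallest p together.

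With a line left out, calls ranged from 333 to 498 between metastasis and primary lines of both rounds, 54 to 137 in round 2, 98 to 231 in round 3, 65 to 145 for Met3 against Met1, 12 to 96 for Met2 against Met1, 0 to 3 for Met3 against Met2 and 0 to 0 for Primary3 against Primary2. At the ends of these ranges, all regions gave 5951 and 8947 calls for both rounds. They gave 1103 and 2810 in round 2, and 1483 and 3530 in round 3. Met3 against Met1 had 1852 and 3577 over all regions, and Met2 against Met1 had 475 and 2475. A fit of only the groups compared gave 0 for Met2 against Met1, 7 for Primary3 against Primary2 and 63 in round 2. Over all regions that kind of fit gave 58, 34 and 1315. DESeq2 gave 3 for Met3 against Met2 and 14 for Primary3 against Primary2. The cause of these moves was not tested, other than that leaving out lines reduces the number of samples.

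Replicate numbers did not pair the lines (correlations of deviations from -0.11 to 0.14 over 18 pairs, 1 above 0.1). With the replicate block the counts were 398 for both rounds, 96 in round 2 and 220 in round 3. They were 125 for Met3 against Met1 and 36 for Met2 against Met1. Over all regions the block gave 7273, 1948, 3306, 3284 and 1067, in the same order. The blocked counts were 0 for Met3 against Met2 and for Primary3 against Primary2. The 8 regions named for Met3 against Met1 kept their direction in 112 of 112 alternatives and their call in 108, and the 6 named for Met2 against Met1 in 84 of 84 and in 72. The fit of only the groups compared took the call from all 6. In the shallowest library 355 of 1907 chromosome 8 regions held no count.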
